A study of Homo sapiens with 16 samples.

Results

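PARP9, DTX3L, PARP14, STAT2, IRF1, IRF3, IRF9, ADAR and EIF2AK2 encode parts of the response of a cell to double-stranded RNA and to interferon. These 9 genes were taken by symbol from a table of read counts for 58787 Ensembl gene identifiers, and each symbol matched 1 identifier. The members were chosen by their role and by counts of these same libraries, and PARP9 in particular was selected on its higher count under 1 siRNA. The values of PARP9 against the controls and between the siRNAs are therefore given as a description and support nothing. RNA came from IMR32 cells, a human neuroblastoma line with amplified MYCN that the labels call neuroblast and assign to brain. Cells received a non-targeting small interfering RNA (siNTC, labelled control) or 1 of 3 siRNAs that knock down TPX2, a protein of the mitotic spindle, named si45, si46 and si47. Each of the 4 groups had 4 libraries. The design text calls them biological replicates without saying that they came from separate cultures, and the column names give 48 hours. All 16 libraries come from this 1 line and all 4 groups are named for an siRNA, so every group received a short double-stranded RNA, the controls too, and an untransfected group was not analysed here.

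Long double-stranded RNA in the cytoplasm is read by sensors such as RIG-I and MDA5, which signal through MAVS and the kinase TBK1 to the transcription factor IRF3 and so to the interferon genes. The kinase PKR (EIF2AK2) binds the same RNA directly and phosphorylates eIF2α, which stops translation, while ADAR edits adenosines in it and thereby hides the RNA of the cell itself. Secreted interferon acts through its receptors and JAK kinases on a complex that holds STAT2 and IRF9, which binds interferon-stimulated response elements (ISRE) in the promoters of its target genes. PARP9 and DTX3L are such targets and encode the partners of 1 ubiquitin ligase complex, and PARP14 encodes a related ADP-ribosyltransferase.

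The promoters of these genes show which of them carry the letters that the pathway reads. RefSeq windows on GRCh38.p14, 250 bases before to 50 after a gene's start, were found for 8 of the 9 genes. Both strands were searched for GAAA, any 2 bases and GAAA, the core of an ISRE, for GAA, any 2 bases and GAAAC, a shorter form of it, and for TTC, any 3 bases and GAA, the GAS element of interferon target genes. Of 35116 such windows of all genes, 3.57%, 1.46% and 7.66% held them. The stretches with a match are printed 5′ to 3′ on the strand of each gene, with the ISRE core (PARP9, DTX3L, PARP14, EIF2AK2), the shorter form (IRF9) or the GAS element (IRF1) in capitals.
PARP9: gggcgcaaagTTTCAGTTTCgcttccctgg
DTX3L: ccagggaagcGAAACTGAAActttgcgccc
PARP14: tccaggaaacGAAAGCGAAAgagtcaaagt
EIF2AK2: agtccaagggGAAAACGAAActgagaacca
IRF9: ccctggaggaGAACTGAAACttagggtggg
IRF1: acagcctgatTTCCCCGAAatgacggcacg
The PARP9 and DTX3L lines are the same 30 bases read from opposite strands (chr3:122564322-122564351), since these genes lie on opposite strands, with RefSeq starts 38 bases apart for these windows, and the ISRE core runs across the start of DTX3L. PARP9 has another RefSeq start, and the window of that start (chr3:122564735-122565034, minus strand) held no match to the 3 motifs. The other stretches lie at chr3:122680800-122680829 (plus strand) for PARP14, chr2:37156967-37156996 (minus) for EIF2AK2, chr14:24161219-24161248 (plus) for IRF9 and chr5:132490878-132490907 (minus) for IRF1. In PARP9 and DTX3L the shorter form also matched and shared 5 bases with the core, and PARP14 and IRF9 each held a GAS match that shared 0 bases with the match shown. The windows of STAT2 and ADAR held no match to the 3 motifs. A match is a stretch of letters, and binding was not measured.

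The total count ran from 5318159 to 7864343 per library, and 14193 genes passed the filter on low counts. Levels are given as CPM, counts scaled to the TMM library size, on which 1 read was worth 0.127 to 0.189 CPM. Because the 3′ end kit reads transcripts at their ends, counts were not divided by length. TPX2, the targeted gene, averaged 327 CPM in the controls and 91.6, 81.7 and 71.5 CPM under the 3 siRNAs, and every knockdown library lay below every control. The label of the cells was checked on 10 neuroblast markers, HAND2 and GATA3 among them, and all 10 passed the filter. Their summed level was 5670 to 6155 CPM in the controls, 5816 to 6777 under si45, 6168 to 7197 under si46 and 6317 to 7420 under si47, so its range lay higher in the groups where PARP9 was higher, and its part in that was not tested. Of the 10, edgeR called DBH lower under each siRNA, CHGA higher under si46 and si47, and HAND2 and GATA3 higher under si47. In the mean of the 3 siRNAs it called DBH lower and CHGA and HAND2 higher. Among all genes 1.34%, 3.4%, 9.74% and 7.14% were called under si45, si46, si47 and in the mean. DESeq2 and limma-voom also called MYCN higher under si47 and in the mean, where edgeR did not (edgeR adjusted p = 0.105 and 0.0904). Both also called HAND2 higher under si46. These genes are named after their values were seen. In bulk RNA, fewer cells of a type and less RNA per cell cannot be told apart. Of 8 immune and 4 endothelial markers 0 passed the filter, with sums of at most 3.70 and 1.68 CPM per library, and CD3E, LYZ and NKG7 were at 0 throughout. Of 8 mesenchymal markers 3 passed, and the list summed to 44.6 to 70.3 CPM in the controls and 32.5 to 88.1 CPM in the knockdown libraries.

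PARP9, which was chosen for its higher count, passed the threshold against the controls under si47, and 0 of the other 7 tested members passed it in a comparison with the controls. The kinase gene EIF2AK2, the editing enzyme gene ADAR and the factor genes IRF3, IRF9 and STAT2 had log2 fold changes between -0.17 and 0.29 in each siRNA group. The PARP9 values were 0.44 under si45 (SE 0.398), 1.08 under si46 (SE 0.386) and 1.42 under si47 (SE 0.382), while DTX3L, its neighbour on the opposite strand, had values of -0.72, -0.16 and -0.54. PARP14 was close to absent. The plot of levels by library shows all 9 genes.

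**Figure D1:**
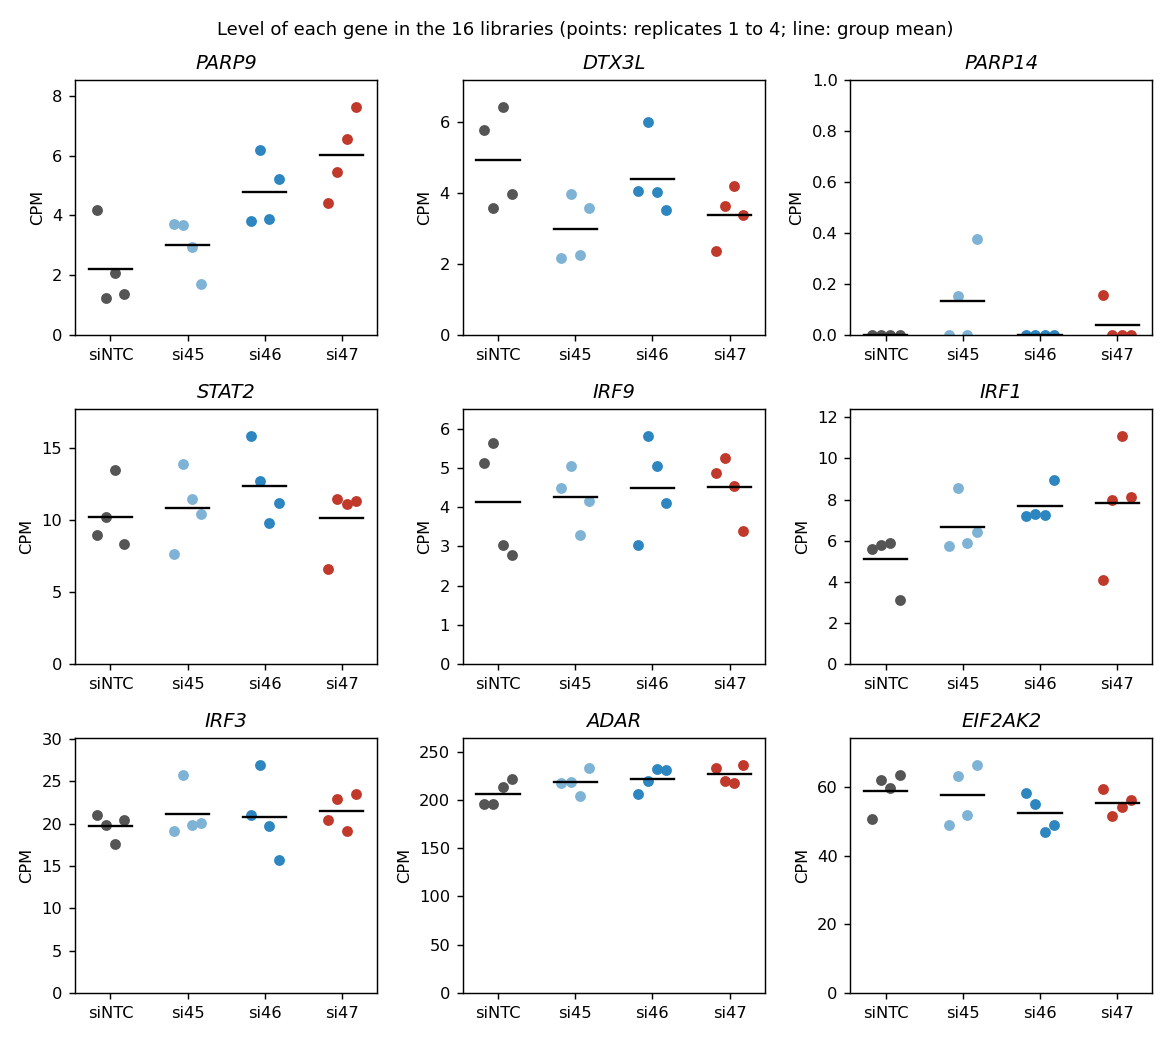
CPM (linear axis from 0, scaled per panel) of the 9 genes in each library, by siRNA group. Points are replicates 1 to 4 and the line is the group mean. PARP9 lies at 1.25 to 4.17 CPM in siNTC and at 4.40 to 7.62 in si47, DTX3L is not higher with it, and PARP14 has at most 2 counts in any library.

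The calls were read from an edgeR quasi-likelihood fit over all 14193 genes, with Benjamini-Hochberg adjusted p under 0.05 as the threshold. 8 of the 9 members passed the filter. Under si45, 0 of the 8 were called, against 1.34% of all genes tested, and 1 had an unadjusted p under 0.05 (11.4% of all genes). Under si46, 0 of 8 were called, against 3.4% of all genes, and 2 had an unadjusted p under 0.05 (15% of all). Under si47, 1 of 8 was called, against 9.74% of all genes, and 2 had an unadjusted p under 0.05 (23.3% of all). That 1 was PARP9, which was chosen for it, so nothing is read from the count. In the mean of the 3 siRNAs 0 of 8 were called, against 7.14% of all genes, and 2 had an unadjusted p under 0.05 (20.4% of all). The counts over all genes moved with single libraries: the 190 genes called under si45 were 97 without si45 replicate 1, 119 without siNTC replicate 2 and 406 without si45 replicate 3, and the 482 under si46 were 252 without si46 replicate 2, 253 without si46 replicate 4 and 293 to 318 without siNTC replicate 1, 2 or 4. In the mean, 1014 genes were called, and 629, 675 and 632 without siNTC replicate 1, 3 or 4. DESeq2 and limma-voom also called 0 members under si45 and si46. In the mean limma-voom called 0 and DESeq2 called PARP9 (adjusted p = 0.0354). All libraries of a group lay on 1 side of all controls for 0 members under si45, 1 under si46 (IRF1) and 1 under si47 (PARP9), against 6.31%, 9.73% and 14.4% of all genes. The median log2 fold change of the 8 tested members was 0.085, 0.10, 0.12 and 0.10 in these 4 comparisons, where the median of all genes was 0.00097, 0.0024, 0.0043 and -0.0011. PARP9 is 1 of the 8, and the members were chosen in part by counts of these libraries, so nothing is read from their medians.

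**Figure D2:**
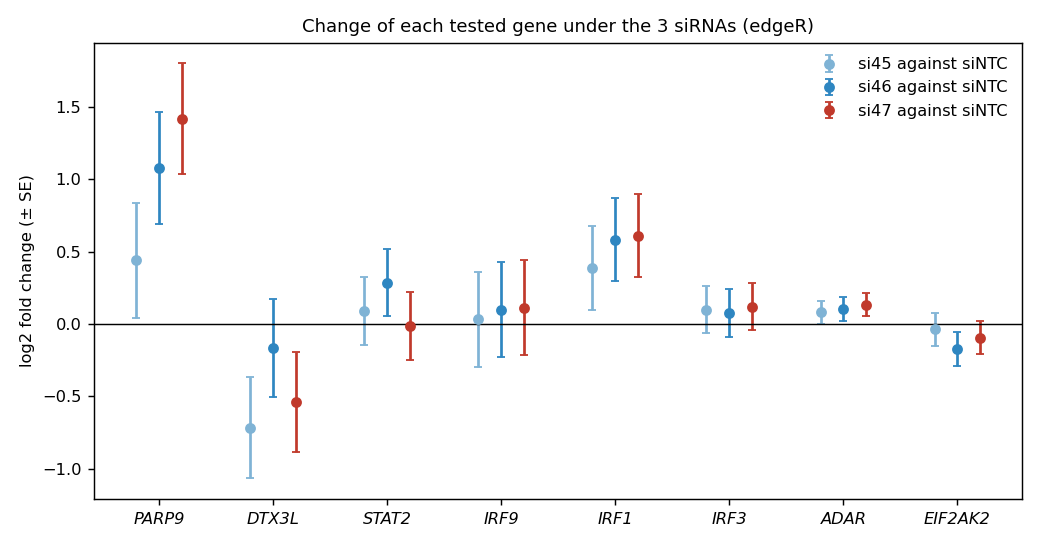
Log2 fold change against siNTC (vertical axis, edgeR, bars ± 1 SE) of the 8 genes that passed the filter, for si45, si46 and si47. PARP9 lies highest under si47 (1.42) and DTX3L lowest under si45 (-0.72); the other 6 genes lie between -0.17 and 0.61. All 3 comparisons share the 4 siNTC libraries.

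EIF2AK2 and ADAR act on double-stranded RNA directly. EIF2AK2 (ENSG00000055332, chromosome 2, 37099210 to 37157065, minus strand, GENCODE v29 on GRCh38) had counts of 316, 397, 317 and 367 in siNTC replicates 1 to 4 and 263 to 462 in the 12 knockdown libraries. Its mean level was 59.1 ± 5.82 CPM in the controls (SD, n = 4), 57.7 ± 8.6 under si45, 52.4 ± 5.37 under si46 and 55.4 ± 3.32 under si47, and each siRNA group overlapped the controls. With SEs of 0.116 to 0.117, the changes from control were -0.036, -0.17 and -0.093 on the log2 scale (edgeR adjusted p = 0.948, 0.548 and 0.692). The 3′ end of EIF2AK2 overlaps GPATCH11 on the opposite strand by 35 bases in the annotation, and GPATCH11 had a mean of 531.7 counts per library. AC007899.1, a pseudogene annotated within EIF2AK2 on the opposite strand, was at 0. Whether the counting used strand is not given in the sources used here.

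ADAR (ENSG00000160710, chromosome 1, 154582057 to 154628013, minus strand) had 1128 to 1631 counts per library, the most of the 9, with the smallest SE of a fold change among them. ADAR averaged 207 ± 12.98 CPM in the controls (SD, n = 4), 219 ± 11.8 under si45, 222 ± 12.02 under si46 and 227 ± 9.72 under si47. The control libraries spanned 196 to 222 CPM, and 5 of the 12 knockdown libraries lay above them. Fold changes of 0.081, 0.10 and 0.13 (log2, SE 0.0803 to 0.0804) did not pass (edgeR adjusted p = 0.78, 0.609 and 0.328). The neighbours in the order siNTC, si45, si46, si47 overlapped in each case.

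IRF3 and IRF1 are transcription factors, IRF3 phosphorylated downstream of the RNA sensors and IRF1 induced by interferon. IRF3 (ENSG00000126456, chromosome 19, 49659569 to 49665875, minus strand) had 84 to 168 counts per library. Controls averaged 19.7 ± 1.503 CPM (SD, n = 4), and the means under si45, si46 and si47 were 21.2 ± 3.05, 20.8 ± 4.66 and 21.5 ± 2.05 CPM, all overlapping the controls. Its fold changes of 0.10, 0.076 and 0.12 (log2, SE 0.165 in each) did not pass (edgeR adjusted p = 0.883, 0.887 and 0.72). The si45 value was -0.0013 without si45 replicate 2, and the si46 value was -0.067 without si46 replicate 2. IRF3 overlaps BCL2L12 on the opposite strand by 734 bases at its start, away from the 3′ end that the kit reads.

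IRF1 (ENSG00000125347, chromosome 5, 132481609 to 132490798, minus strand) had the highest log2 values against the controls after PARP9. Its counts were 35, 37, 31 and 18 in siNTC replicates 1 to 4, 37, 56, 34 and 34 in si45, 57, 40, 43 and 48 in si46, and 26, 44, 66 and 48 in si47. The group means in that order were 5.096 ± 1.32 CPM (SD, n = 4), 6.66 ± 1.303, 7.67 ± 0.8496 and 7.82 ± 2.87. All 4 si46 libraries lay above all 4 controls, and 3 of 4 did for si45 and for si47. The log2 fold changes of 0.39, 0.58 and 0.61 (SE 0.289, 0.286 and 0.286) did not pass over all genes (edgeR adjusted p = 0.677, 0.331 and 0.188). Leaving out the lowest control, siNTC replicate 4, gave 0.41 under si46 (edgeR adjusted p = 0.605), and without si47 replicate 3 the si47 value was 0.39 (adjusted p = 0.458). C5orf56 and AC116366.3 are annotated across the 3′ end of IRF1 on the opposite strand and held 2.69 and 0 counts per library on average.

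STAT2 and IRF9 are parts of the interferon-activated complex. STAT2 (ENSG00000170581, chromosome 12, 56341597 to 56360155, minus strand) had counts of 56, 65, 71 and 48 in siNTC, 49, 91, 66 and 55 in si45, 125, 70, 58 and 60 in si46 and 42, 63, 66 and 67 in si47. Its mean level ran from 10.1 ± 2.35 CPM under si47 to 12.4 ± 2.6 CPM under si46 (SD, n = 4), with the controls at 10.2 ± 2.27 and si45 at 10.8 ± 2.61, and every group overlapped every other. From control to si45, si46 and si47 the values were 0.089, 0.29 and -0.015 (log2, SE 0.232 to 0.236), and none passed (edgeR adjusted p = 0.936, 0.629 and 0.981). IRF9 (ENSG00000213928, chromosome 14, 24161053 to 24166565, plus strand) had 16 to 36 counts per library. AL136295.5 is annotated on the same strand across all 5513 bases of IRF9, its 3′ end included, and held 0.0625 counts per library on average, and how reads shared by both were assigned is not given in the sources used here. The controls averaged 4.14 ± 1.45 CPM (SD, n = 4), and the siRNA groups 4.25 ± 0.734, 4.502 ± 1.203 and 4.51 ± 0.808 CPM. Its fold changes of 0.032, 0.10 and 0.11 (log2, SE 0.33 to 0.331) were smaller than their errors (edgeR adjusted p = 0.986, 0.933 and 0.885). The direction of the IRF9 values was positive with all libraries and negative without siNTC replicate 3 or 4, with log2 values of -0.088 or -0.12 under si45, -0.021 or -0.05 under si46 and -0.0061 or -0.035 under si47. It was also negative without si45 replicate 2 under si45 (-0.054) and without si46 replicate 2 under si46 (-0.048). For STAT2 the si45 value turned to -0.051 without si45 replicate 2, and the si47 value turned to 0.14 without siNTC replicate 3 and to 0.15 without si47 replicate 1.

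PARP9 (ENSG00000138496, chromosome 3, 122527924 to 122564577, minus strand) had counts of 26, 8, 11 and 8 in siNTC replicates 1 to 4, 24, 24, 17 and 9 in si45, 30, 34, 23 and 28 in si46, and 28, 30, 39 and 45 in si47. The corresponding means were 2.22 ± 1.35 CPM (SD, n = 4), 3.01 ± 0.942, 4.77 ± 1.15 and 6.004 ± 1.39. All 4 si47 libraries lay above all controls, 2 of 4 did for si46 and 0 of 4 for si45, with siNTC replicate 1 at 4.17 CPM and the other controls at 1.25 to 2.08. In the order of the means si45 and the controls overlapped, all 4 si46 libraries (3.80 to 6.18 CPM) lay above all 4 si45 libraries (1.70 to 3.73 CPM), and si46 and si47 overlapped. With 8 to 45 reads per library, the counting error of a single library is itself large. The si47 call (edgeR adjusted p = 0.0131) rested on single libraries: it was lost when siNTC replicate 2, siNTC replicate 4 or si47 replicate 4 was left out (edgeR adjusted p = 0.0554, 0.054 and 0.051), and the log2 fold change without siNTC replicate 1 was 1.93. Without siNTC replicate 1 PARP9 also passed under si46 (1.59, edgeR adjusted p = 0.0356) and in the mean of the 3 siRNAs (1.49, adjusted p = 0.0145), and it passed in the mean without si45 replicate 4 (1.04, adjusted p = 0.047) and with the replicate block (1.003, adjusted p = 0.0356).

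DTX3L (ENSG00000163840, chromosome 3, 122564238 to 122575203, plus strand), which encodes the ligase partner of PARP9, had negative log2 values where those of PARP9 were positive. Its counts were 36, 23, 34 and 23 in siNTC, 14, 26, 13 and 19 in si45, 32, 33, 24 and 19 in si46, and 15, 20, 25 and 20 in si47. These gave 4.95 ± 1.37 CPM (SD, n = 4), 2.999 ± 0.921, 4.41 ± 1.09 and 3.39 ± 0.7702. 3 of 4 si45 libraries, 1 of 4 si46 libraries and 2 of 4 si47 libraries lay below all controls, and the groups overlapped in each case. Values of -0.72, -0.16 and -0.54 on the log2 scale (SE 0.35, 0.339 and 0.346) did not pass over all genes (edgeR adjusted p = 0.434, 0.881 and 0.364), although si45 had an unadjusted p of 0.0485 in edgeR. Annotated PARP9 and DTX3L overlap by 340 bases at their starts on opposite strands, and neither covers the 3′ end of the other.

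The ratio of both genes within a library does not depend on how libraries are scaled, and is read here as a shift between groups, not as a difference in level between the genes. PARP9 had 0.722, 0.348, 0.324 and 0.348 reads for each DTX3L read in siNTC replicates 1 to 4, and fewer reads than DTX3L in all 4. In si45 the ratios were 1.71, 0.923, 1.31 and 0.474, and in si46 they were 0.938, 1.03, 0.958 and 1.47. In si47 they were 1.87, 1.5, 1.56 and 2.25, so that PARP9 had more reads than DTX3L in all 4 libraries. The si46 and si47 ratios lay above all control ratios, and si45 replicate 4 fell within the control range. Both genes together summed to 7.17 ± 2.45 CPM in the controls (SD, n = 4), 6.01 ± 1.13 under si45, 9.175 ± 2.05 under si46 and 9.397 ± 1.96 under si47, and these sums overlapped between siNTC and each siRNA. The ratio was formed after the values were seen and rests on the PARP9 counts that chose the gene, so it is not tested.

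**Figure D3:**
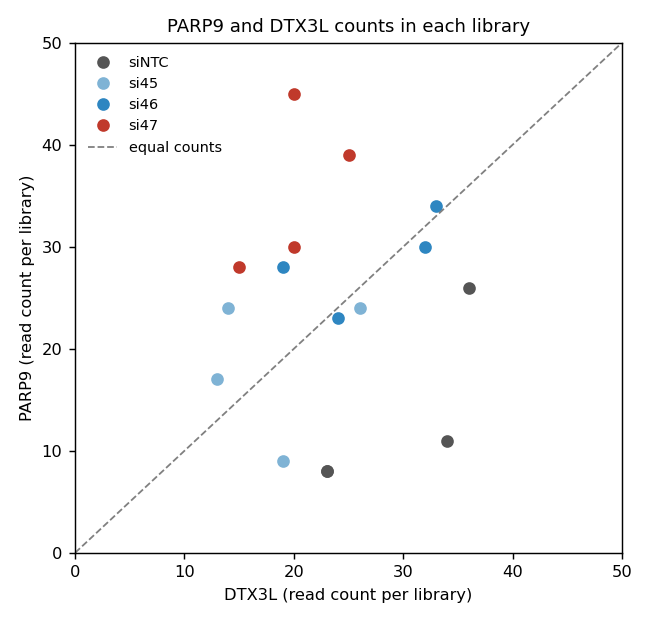
Read counts of PARP9 (vertical) against DTX3L (horizontal) in each of the 16 libraries, coloured by group, with a dashed line at equal counts; 2 siNTC libraries coincide at 23 DTX3L and 8 PARP9 reads. The 4 siNTC libraries lie below the line and the 4 si47 libraries above it.

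PARP14 (ENSG00000173193, chromosome 3, 122680618 to 122730840, plus strand) lies 105415 bases beyond DTX3L and carries an ISRE core in its promoter window, printed above. It had 0 counts in all siNTC and si46 libraries, 1 and 2 counts in si45 replicates 2 and 4, and 1 count in si47 replicate 1, 4 reads in all. A count of 0 allows up to 3 counts, which is 0.469 to 0.567 CPM in the siNTC libraries, counting error only. No fold change is given, since all groups are at or under that limit.

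The siRNAs were then compared with each other. From si45 to si46, from si45 to si47 and from si46 to si47, 0 of the 8 tested members were called by edgeR, DESeq2 or limma-voom, where edgeR called 0.0282%, 0.169% and 0.0493% of all genes. PARP9 was the member without overlap from si45 to si46 and from si45 to si47, and 0 members were from si46 to si47, against 2.73%, 5.25% and 4.01% of all genes. The highest si45 library and the lowest si46 library lay at 3.73 and 3.80 CPM. PARP9 was chosen for its higher count under si47, so its values between siRNAs are a description too and support nothing. Its log2 differences were 0.64 (SE 0.373), 0.98 (SE 0.369) and 0.34 (SE 0.356), with edgeR adjusted p of 1, 0.293 and 0.896. At an unadjusted edgeR p under 0.05 the counts were 0, 1 and 0 of 8, against 4.1%, 10.4% and 7.29% of all genes. That 1 was PARP9, so nothing is read from the count. For DTX3L the differences were 0.55 (SE 0.351), 0.17 (SE 0.359) and -0.38 (SE 0.348), and for IRF1 they were 0.20 (SE 0.279), 0.23 (SE 0.279) and 0.028 (SE 0.277), the last of which was -0.056 by limma-voom. For ADAR they were 0.024, 0.053 and 0.029 (SE 0.0802 in each).

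The rest of the pathway was read from lists, some of which hold members too. The interferon genes on the list were not detected beyond 1 read, and interferon genes outside it were not read. Of 14 interferon ligands, IFNB1 and IFNG among them, 13 had 0 counts in every library, and the list summed to 1 read over all 16. 3 counts over the 16 libraries together would be 0.0312 CPM, a limit for counting error only, which does not cover reads lost as multi-mapped. Among 20 double-stranded RNA sensors and effectors, 11 passed the filter. The sensors IFIH1 (MDA5), TLR3, DHX58 and the synthetases OAS1, OAS2, OAS3 and OASL did not, with 0 to 11 reads each over the 16 libraries. RIGI (RIG-I) was at 2.31 ± 0.653 CPM in the controls (SD, n = 4), 2.66 ± 0.789 under si45, 1.56 ± 0.397 under si46 and 2.11 ± 0.341 under si47. Its log2 fold changes were 0.20, -0.53 and -0.12 (SE 0.43, 0.448 and 0.438), and it is named after its values were seen. Of the 11, 0 were called under any siRNA or in the mean by edgeR, DESeq2 or limma-voom, and 0, 1, 1 and 1 had an unadjusted edgeR p under 0.05 for si45, si46, si47 and the mean (11.4%, 15%, 23.3% and 20.4% of all genes). Of the 11, 3, 2, 1 and 1 had a positive log2 fold change, with medians of -0.058, -0.13, -0.086 and -0.10. The medians of all genes were 0.00097, 0.0024, 0.0043 and -0.0011. These comparisons share the siNTC libraries, and a shift of the list as a whole was not tested.

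The signalling parts were expressed. Of 16 sensor adaptors and kinases, 11 passed the filter, and MAVS, which relays the signal of RIG-I and MDA5, stood at 86.3 CPM in siNTC. STING1, the adaptor of the DNA sensor CGAS, had 1 read over all libraries, and IRF7, IKBKE and IKBKG were listed at 0. A listed 0 need not mean absence, since the treatment of multi-mapped reads is not given in the sources used here. Of 20 interferon receptor and JAK-STAT genes, 17 passed, IFNAR1 and IFNAR2 at 29.04 and 15.9 CPM in the controls. MAVS, IFNAR1 and IFNAR2 are named after their values were seen. edgeR calls were 0 for both lists in all 4 comparisons, with 0, 0, 1 and 0 adaptor genes and 1, 2, 4 and 4 receptor and JAK-STAT genes at an unadjusted edgeR p under 0.05, where 11.4%, 15%, 23.3% and 20.4% of all genes were. DESeq2 called 1 of these, SOCS1, a feedback inhibitor of JAK signalling, under si47 (adjusted p = 0.037). It was at 0.6885 ± 0.271 CPM in the controls (SD, n = 4) and 2.25 ± 0.575 under si47, a log2 value of 1.7 with an edgeR adjusted p of 0.0591, and it too is named after its values were seen. limma-voom called 0 in both lists.

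**Figure D4:**
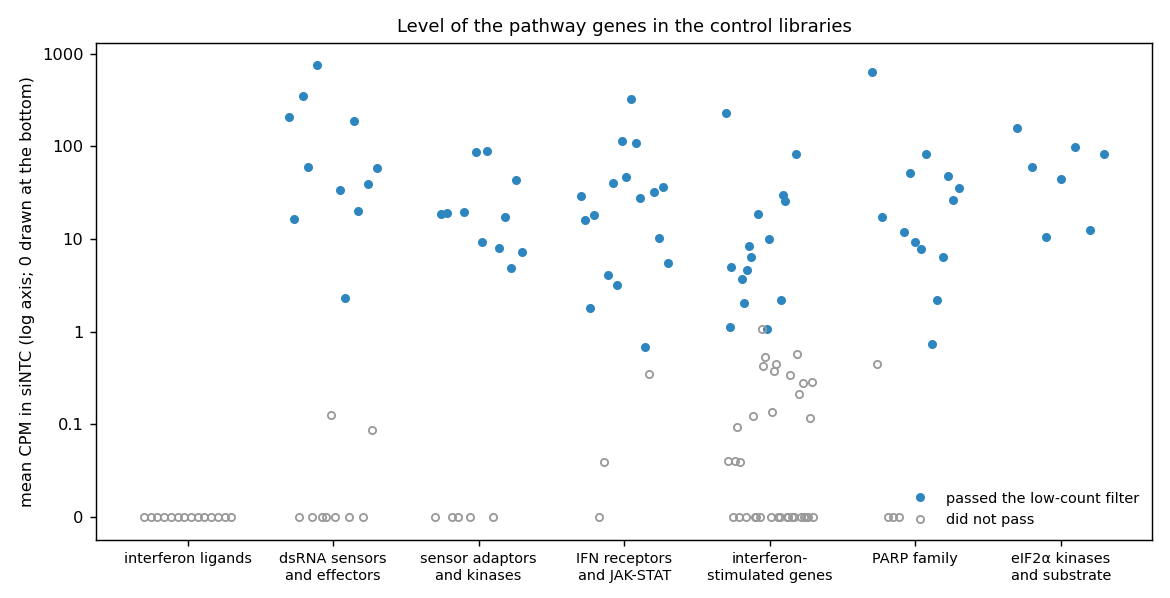
Mean CPM over the 4 siNTC libraries (log axis, genes at 0 drawn at the bottom) for the genes of 7 lists. Filled points passed the filter on low counts over all 16 libraries and open points did not. All 14 interferon ligands lie at 0 in siNTC, and 35 of 50 interferon-stimulated genes did not pass.

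Most interferon-stimulated genes were near the detection limit in every group. Of 50 on the list, PARP9, DTX3L and PARP14 included, 15 passed the filter, 34 had a mean under 1 CPM and 7 had 0 counts in every library. MX1, IFIT1, IFIT3 and RSAD2, which are strongly induced by interferon in many cells, had 1, 9, 0 and 32 reads over the 16 libraries. Of the 14 tested besides PARP9, 0 were called under si45 and si46 by edgeR (3 and 2 at an unadjusted p under 0.05, where 11.4% and 15% of all genes were; 0 and 1 by DESeq2, the 1 being ISG20; 0 and 0 by limma-voom). Under si47 2 of the 14 were called higher and 0 lower, where 4.91% of all genes were called higher, and in the mean 1 was called higher (3.61% of all genes). At an unadjusted edgeR p under 0.05 there were 3 under si47 and 3 in the mean, where 23.3% and 20.4% of all genes were. The median log2 fold changes of the 14 were 0.071, -0.035, 0.043 and 0.016 over si45, si46, si47 and the mean, and with PARP9 they were 0.082, 0.018, 0.10 and 0.025. Over all genes the medians were 0.00097, 0.0024, 0.0043 and -0.0011.

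The 2 called under si47 besides PARP9 were IFI16 and ISG20. IFI16, a DNA-binding sensor of the nucleus and cytoplasm, had 20, 27, 19 and 22 counts in siNTC and 43, 34, 50 and 51 in si47, without overlap. Its mean was 3.71 ± 0.425 CPM in the controls (SD, n = 4), 5.21 ± 1.64 under si45, 5.21 ± 0.791 under si46 and 7.49 ± 1.21 under si47. It rose by 1.01 under si47 (log2, SE 0.289, edgeR adjusted p = 0.0206), a call that was lost on leaving out siNTC replicate 1 or si47 replicate 4 (edgeR adjusted p = 0.0644 and 0.0648). ISG20, an exonuclease that degrades single-stranded RNA, had 8, 11, 2 and 5 counts in siNTC and 14, 13, 36 and 21 in si47. Its si47 libraries lay above all controls. It rose by 1.69 under si47 (log2, edgeR adjusted p = 0.0295) and by 1.65 in the mean (adjusted p = 0.0187). Its si46 value of 1.69 had an edgeR adjusted p of 0.0593, and under si46 it passed by DESeq2 (0.0305) and in edgeR with the replicate block (0.0276), with no filter on low counts (0.0284), with only the groups compared (0.0489) and without si46 replicate 1 (0.0282). Its si47 call was lost by limma-voom (adjusted p = 0.0922) and on leaving out siNTC replicate 1, 3 or 4 or si47 replicate 3 or 4 (edgeR adjusted p = 0.054, 0.101, 0.0839, 0.125 and 0.0571). Its call in the mean was lost by limma-voom (0.0909) and on leaving out siNTC replicate 3 (edgeR adjusted p = 0.0921) or 4 (0.0736).

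The relatives of the members were looked at by family. Of 17 PARP genes 13 passed the filter, and PARP10, PARP12 and PARP15, like PARP14, did not. Besides PARP9, 1 was called, PARP1, which detects DNA breaks. PARP1 was called under si47 and in the mean, where 9.74% and 7.14% of all genes were. With PARP9 included, 2, 2, 3 and 3 of the 13 had an unadjusted edgeR p under 0.05 for si45, si46, si47 and the mean. Among all genes 11.4%, 15%, 23.3% and 20.4% did. PARP1 averaged 632 ± 84.7 CPM in the controls (SD, n = 4) and 507 ± 49.8 under si47, and fell by 0.32 under si47 (log2, edgeR adjusted p = 0.0297) and by 0.25 in the mean (adjusted p = 0.0395). With the replicate block it also passed under si46 (log2 -0.24, edgeR adjusted p = 0.0191; 0.189 without the block). Its si47 call was lost on leaving out siNTC replicate 1, 3 or 4 or si47 replicate 1 or 2 (edgeR adjusted p = 0.0811, 0.148, 0.0501, 0.1 and 0.124), and its call in the mean was lost by limma-voom (adjusted p = 0.0521) and without any 1 of 11 libraries (edgeR adjusted p = 0.0557 to 0.258). Of 5 Deltex genes 4 passed and 0 were called by edgeR, DESeq2 or limma-voom, with 1 (DTX3L itself, under si45, where 11.4% of all genes were) at an unadjusted edgeR p under 0.05. Of 9 IRF genes 4 passed, IRF1, IRF2, IRF3 and IRF9, and 0 were called by the 3 tools. At an unadjusted edgeR p under 0.05 there was 1 in si46, in si47 and in the mean, where 15%, 23.3% and 20.4% of all genes were.

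STAT3, which answers cytokines of the interleukin 6 family, was the 1 member of the STAT family called, of 6 that passed the filter. It was called by edgeR under si45, si46, si47 and in the mean, where 1.34%, 3.4%, 9.74% and 7.14% of all genes were. Its counts were 740, 685, 859 and 829 in siNTC and 995 to 1507 in the knockdown libraries. Its means were 133 ± 24.9 CPM in the controls (SD, n = 4), 174 ± 11.9 under si45, 194 ± 7.51 under si46 and 203 ± 10.7 under si47. The si46 and si47 libraries lay above all controls, and the si45 libraries did apart from 1. STAT3 rose by 0.39, 0.55 and 0.61 under si45, si46 and si47 (log2, edgeR adjusted p = 0.0356, 0.00059 and 5.96e-05). The si46 and si47 calls held in each leave-one-out fit. The si45 call was lost on leaving out siNTC replicate 1, 2 or 4 or si45 replicate 1 or 4 (edgeR adjusted p = 0.174, 0.186, 0.0513, 0.0737 and 0.15) and when only the groups compared were fitted (0.0797).

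Of the genes that set the phosphorylation of eIF2α, the called ones were subunits of its phosphatase. EIF2AK2 is 1 of 4 kinases of eIF2α, with EIF2AK1, EIF2AK3 and EIF2AK4, and edgeR, DESeq2 and limma-voom called 0 of the 4. Of the 7 genes of the list, edgeR called 0, 1, 2 and 2 for si45, si46, si47 and the mean (1.34%, 3.4%, 9.74% and 7.14% of all genes). At an unadjusted edgeR p under 0.05 the counts were 3, 2, 2 and 2 (11.4%, 15%, 23.3% and 20.4% of all genes). PPP1R15A (GADD34), which brings a phosphatase to eIF2α after stress, averaged 12.6 ± 2.24 CPM in the controls (SD, n = 4), 21.7 ± 6.55 under si45, 28.5 ± 6.75 under si46 and 31.9 ± 7.11 under si47. It rose by 1.17 under si46 and 1.34 under si47 (log2, edgeR adjusted p = 0.000956 and 8.26e-05), and its si45 value of 0.79 had an adjusted p of 0.0609. All 12 knockdown libraries lay above all controls. Under si45 it passed by DESeq2 (adjusted p = 0.0268), in edgeR with no filter on low counts (0.00116), with only the groups compared (0.0462) or with the replicate block (0.00478), without si45 replicate 3 (0.94, edgeR adjusted p = 0.00742), without si46 replicate 3 (adjusted p = 0.0486) and without si47 replicate 3 (0.0363). PPP1R15B, its constitutive counterpart, rose by 0.33 under si47 (log2, edgeR adjusted p = 0.0243) and by 0.28 in the mean (0.0246). With the replicate block it also passed under si46 (0.29, edgeR adjusted p = 0.0298; 0.086 without the block). The si47 call of PPP1R15B was lost on leaving out siNTC replicate 1 or 4 or si47 replicate 1 or 2 (edgeR adjusted p = 0.0853, 0.0627, 0.13 and 0.0533), and that in the mean without siNTC replicate 1, 3 or 4 (0.121, 0.0529 and 0.0821).

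**Figure D5:**
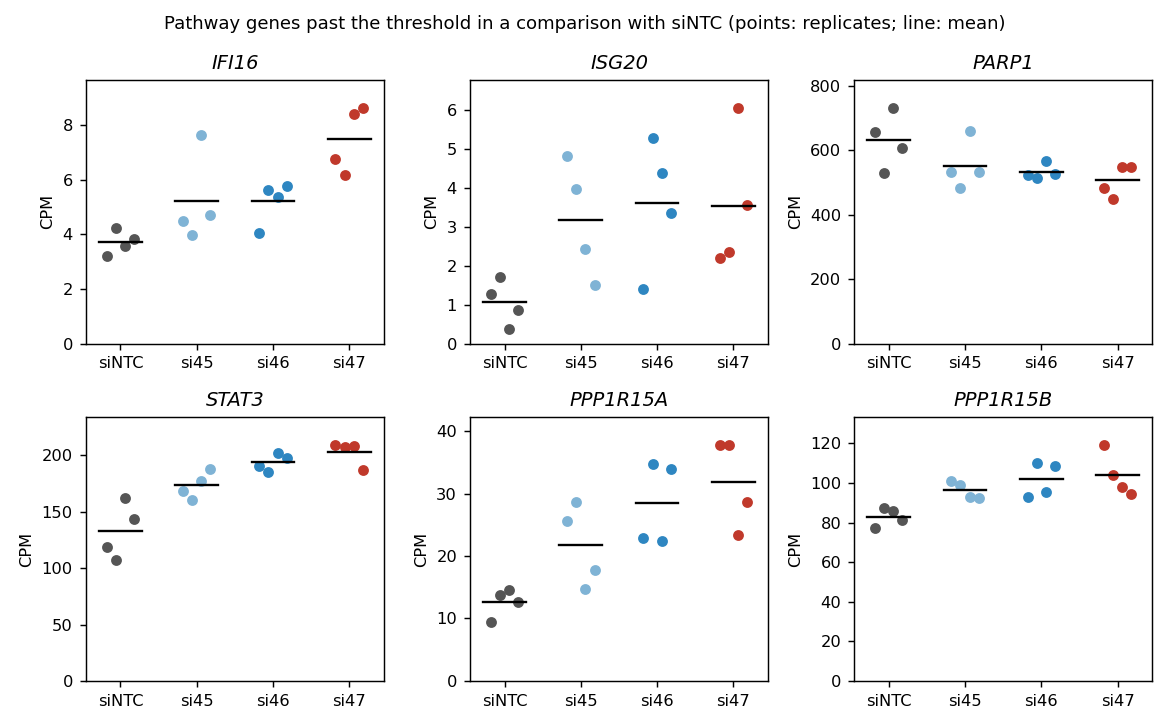
CPM (linear axis from 0) of the 6 genes of the pathway and family lists, PARP9 aside, that passed the threshold in a comparison with siNTC. Points are the 4 replicates of each group and the line is the mean; PPP1R15A lies at 9.46 to 14.6 CPM in siNTC and at 14.7 to 37.7 CPM in the knockdown libraries, and PARP1 is lower in si47.

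The patterns most like each member were sought by Pearson's r of log2 CPM over the 16 libraries among 14192 other tested genes. These are the highest of many values, libraries of 1 group share their treatment, and they are given as a description. For PARP9 they were SLU7, PLXNA2 and PCMTD1-DT (r = 0.88, 0.855 and 0.855), for DTX3L MIER1, CTNNBL1 and PJA1 (0.824, 0.784 and 0.759) and for IRF1 KLC4, NUP62CL and ZFAND2A (0.892, 0.787 and 0.784). For STAT2 they were KXD1, RHEBL1 and NUP62CL (0.859, 0.794 and 0.766), for IRF3 FNBP1L, CDIN1 and NR1H3 (0.808, 0.788 and 0.778) and for IRF9 ASB8, CLK4 and UTRN (0.847, 0.823 and 0.8). For ADAR they were SKP1, H3-3B and WBP2 (0.845, 0.835 and 0.828) and for EIF2AK2 LHX2, PACSIN2 and COL16A1 (0.857, 0.785 and 0.738). No member was among the 3 most like another. PARP9 and DTX3L had r = 0.0069 with each other, which put DTX3L at rank 7027 of 14192 for PARP9. The highest values among members were 0.619 for PARP9 with IRF1 and 0.606 for STAT2 with IRF1, and the lowest was -0.566 for PARP9 with EIF2AK2.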

How the data were processed

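The authors deposited 1 table of raw read counts, whole numbers per Ensembl gene and library. Per the labels' protocols, libraries came from a 3′ end kit (QuantSeq) with 15 PCR cycles. The submitters' processing notes name FastQC 0.11.7, STAR 2.7.2b, edgeR 3.36.0, limma 3.50.3 and GRCh38. The counting tool, annotation, use of strand and treatment of duplicates and multi-mapped reads are not given in the sources used here. Reads of overlapping genes may therefore be shared, and limits from counts cover counting error only. Each column names its siRNA and replicate, which gave its sample. A gene name table gave symbols for 58434 identifiers, GENCODE v29 gave positions, and mitochondrially encoded genes were not analysed here.

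In R 4.3.3, edgeR 4.0.16 kept genes by filterByExpr (minimum count 10, minimum total 15), scaled by TMM and fitted a robust quasi-likelihood model with the 4 groups as its terms to all 16 libraries. Benjamini-Hochberg adjustment ran over all genes tested, separately for each comparison. SEs are fold changes divided by the root of F. All p-values measure the spread between these libraries, which may be technical. The scripts were tested on simulated data. Replicate pairs of a group (24) had chi-square values of 4.36 to 9.8 per degree of freedom, more than counting error alone would give. No library is therefore taken as a copy of another. These values cannot show whether the libraries came from separate cultures, since separate preparations of the same culture could differ too. Each library was fitted as its own unit, and the main fit did not use the pairing described next. Same-numbered si45 and si47 libraries deviated together from their group means in all 4 pairs (r = 0.119 to 0.242), a pairing seen in the values and not stated in the labels. With the replicate block, 0 members were called between si45 and si47.

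The members and lists were chosen with earlier results of these data known. The genes to name were the members, TPX2, up to 4 called genes of each list, list genes under the filter, genes overlapping a member, and the 3 tested genes most like each member that averaged at least 20 counts (log2 CPM, prior count 2). Alternatives were other scaling factors (RLE, upper quartile), DESeq2 1.42.0 and limma-voom (limma 3.58.1), no filter on low counts or one of 10 counts per library, fits of the compared groups alone, the replicate block, a threshold of 0.01 and each library left out. For list genes they were added after seeing the data. Figures were drawn with matplotlib 3.10.9.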

Additional observations from a re-analysis of the deposited data

Results flagged for a closer look

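Among 32 sets of 4 libraries (8 genes in 4 groups, PARP14 left out for its few reads), 4 had a library far from its other 3, judged by the gap to the nearest divided by the whole range. An assumed rate of 5% per set would flag about 1.6 sets of 32. That rate was not checked on counts as low as these, so no excess is read from the 4. For STAT2, si47 replicate 1 had 6.60 CPM and the rest of si47 11.1 to 11.4 CPM (gap ratio 0.929). For IRF1, siNTC replicate 4 had 3.12 CPM and the other controls 5.61 to 5.86 CPM (0.908). IRF1 also had 8.94 CPM in si46 replicate 4 and 7.216 to 7.275 CPM in the rest of si46 (0.966). For IRF3, si45 replicate 2 had 25.7 CPM and the rest of si45 19.1 to 20.05 CPM (0.855).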

How the results depend on the processing

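The number of members called under si47 was 1, and 0 when 10 counts were required in every library (PARP9, with as few as 8, was then not tested) or at a threshold of 0.01. In the mean it was 0, and 1 (PARP9) by DESeq2 and with the replicate block. Leaving out 1 library gave 0 to 1 under si46, under si47 and in the mean. Same-numbered libraries correlated above 0.1 in 4 of 4 pairs of si45 with si47, in 3 of 4 of si45 with si46 and of si46 with si47, and in 2, 1 and 1 of 4 of siNTC with si45, si46 and si47, and 14 of 16 libraries correlated best with one of their own number. The block raised the genes called under si45, si46, si47 and in the mean from 190, 482, 1382 and 1014 to 577, 1073, 2198 and 1817, and between siRNAs (si45 to si46, si45 to si47, si46 to si47) from 4, 24 and 7 to 33, 398 and 108. At a threshold of 0.01 the first 4 counts were 96, 189, 673 and 440. DESeq2 and no filter gave 292 and 356 genes under si45, and 13, 153, 45 and 14, 166, 44 between siRNAs. Leaving out 1 library gave 97 to 406, 252 to 579, 932 to 1664 and 629 to 1388 genes in the first 4 comparisons and 4 to 7, 10 to 147 and 2 to 23 between siRNAs, the 147 and 23 without si47 replicate 3. The IRF1 difference from si46 to si47, 0.028, was -0.056 by limma-voom and -0.0077 with the block. Leaving out single libraries turned the sign of these uncalled log2 values. STAT2 ran from -0.051 to 0.24 from siNTC to si45, -0.10 to 0.15 from siNTC to si47 and -0.25 to 0.053 from si45 to si47. IRF1 ran from -0.19 to 0.24 from si46 to si47. IRF3 ran from -0.0013 to 0.16 from siNTC to si45, -0.067 to 0.18 from siNTC to si46, -0.17 to 0.087 from si45 to si46, -0.03 to 0.13 from si45 to si47 and -0.063 to 0.19 from si46 to si47. IRF9 ran from -0.12 to 0.22 from siNTC to si45, -0.04998 to 0.29 from siNTC to si46, -0.035 to 0.30 from siNTC to si47, -0.068 to 0.27 in the mean, -0.0795 to 0.23 from si45 to si46, -0.021 to 0.20 from si45 to si47 and -0.14 to 0.16 from si46 to si47. ADAR ran from -0.0075 to 0.058 from si45 to si46 and -0.0044 to 0.053 from si46 to si47. EIF2AK2 ran from -0.11 to 0.044 from siNTC to si45 and -0.13 to 0.02025 from si45 to si47. The cause of these shifts was not tested beyond the fewer genes or samples named. Depth limits PARP14 most, with 0 to 2 counts per library and no test, and then PARP9, DTX3L, IRF1 and IRF9, with 8 to 66.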

Other observations

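Several pathway genes too low to be tested had reads under the TPX2 siRNAs and none in the controls. Of 13 such genes with 8 to 40 reads over the 16 libraries, 7 had 0 counts in all 4 siNTC libraries, while 1 each had 0 in all of si45, of si46 and of si47. CGAS, the sensor of cytoplasmic DNA, had 0 reads in siNTC and 2, 11 and 16 in si45, si46 and si47, in 6 of the 12 siRNA libraries. HERC5, which attaches ISG15 to proteins, had 0 and 14, 12 and 11, in 8 of the 12. DHX58, IFI35, OAS1 and PARP12 were also at 0 in siNTC, with 8 to 15 reads each over all libraries. Across the table, of 4919 genes with 8 to 40 reads, 884 were at 0 in all siNTC libraries, against 586, 468 and 465 in si45, si46 and si47, although summed totals were close (23696270 reads in siNTC and 23880620 to 24730101 in the siRNA groups). These counts were noticed after the values were seen, and the range of 8 to 40 reads was not planned before. Another range could give other counts. Whether the pathway genes differ from the rest of the table was not tested, and each of these counts is near the limit of detection.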
